A study of Mus musculus with 58 samples.

Results

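The nuclear genes of the respiratory chain were followed in mouse embryonic stem (mES) cells in which a core subunit of the SET1/COMPASS complexes, the enzymes that methylate histone H3 at lysine 4, was degraded. Genes were taken by symbol: those beginning with Nduf, Uqcr or Atp5, those beginning with Cox4, Cox5, Cox6, Cox7 or Cox8, and Sdha, Sdhb, Sdhc and Sdhd. This rule selected 89 of the 20177 genes counted. They were 36 subunit genes of complex I, 8 genes for complex I assembly factors (symbols beginning with Ndufaf), 4 genes of complex II, 7 of complex III, 17 of complex IV and 17 of ATP synthase (complex V). Ndufa4 and Ndufa4l2 were kept with complex I by their symbols, although the NDUFA4 protein is now placed in complex IV. Cox6a2, Ndufa2, Ndufb6 and Uqcrc2 were not analysed here.

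Electrons enter the chain from NADH at complex I and from succinate at complex II, pass through complex III and cytochrome c, and reach oxygen at complex IV, and the proton gradient built on the way drives ATP synthase. A few core subunits are encoded by mitochondrial DNA, complex II has none of these, and all other subunits are encoded in the nucleus, translated in the cytosol and imported. Many of the nuclear promoters are known to be bound by NRF1, by the ETS-family factor GABPA and by YY1, and PPRC1 and HCFC1 are known as partners of these factors.

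All cells were E14 mES cells of the 129/Ola strain, maintained with serum and leukaemia inhibitory factor (LIF). In DPY30–mAID cells, which also express OsTIR1, DPY30 fused to a mini auxin-inducible degron was depleted with auxin for 0, 2, 8 or 24 h (n = 3 libraries a time). In RBBP5–FKBP cells, RBBP5 fused to an FKBP degron was depleted with dTAG-13 for 0, 2, 8 or 24 h (n = 3). DPY30–mAID Kdm5a/b dKO cells carry the same DPY30 degron and lack the H3K4 demethylases KDM5A and KDM5B, and they received auxin for 0, 2, 4, 8, 24 or 48 h (n = 2). These 3 lines were labelled with 100 μM 4-thiouridine (4SU) for the last 60 min and measured by SLAM-seq, in which newly made RNA carries T>C conversions. In a separate experiment, unlabelled DPY30–mAID cells received 1 μM retinoic acid (RA), which starts differentiation, in medium without LIF for 0 h, 8 h, 1, 2, 4 or 6 days with DMSO or for 8 h to 6 days with auxin, and were measured by Quant-seq (n = 2). The 2 DMSO libraries of day 6 held identical values and were counted as 1 sample, and auxin-treated cells at 0 h were not analysed here. RBBP5–FKBP cells were grown from single sorted cells, OsTIR1 was added to homozygous DPY30–mAID clones, the dKO line was used as a pair of clones that the labels do not assign to replicates, and cells without a degron that received auxin or dTAG-13 were not analysed here, so clone and agent cannot be told apart from the loss of each protein. The study describes its SLAM-seq libraries as biological replicates, the labels do not say which libraries were separate cultures, and p-values measure the spread between these libraries.

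Both assays count reads at the 3′ end of transcripts, and a gene's level is given here as counts per 1000000 counted reads of its library (CPM), not corrected for length. SLAM-seq libraries held 1721185 to 2852331 reads in the DPY30–mAID and RBBP5–FKBP lines and 5931269 to 7792404 in the dKO line, and Quant-seq libraries held 1264241 to 2543632. T>C reads made up 14.4% to 16.1% of all reads in DPY30–mAID cells except at 8 h, where the 3 libraries held 13.0%, 9.82% and 5.51%. They made up 4.85% to 10.1% in RBBP5–FKBP cells, 2.04% to 5.27% in dKO cells and 0.303% to 0.388% in unlabelled Quant-seq libraries. Quant-seq reads covered 11.2 to 11.9 T positions, about as many as reads in the dKO line and fewer than in the other lines, so the unlabelled share is a background for dKO libraries alone. All 8 ES cell markers (Pou5f1, Nanog, Sox2 and 5 others) had reads in every group. Kdm5b stood at 906, 946 and 910 CPM in DPY30–mAID and at 151 and 109 CPM in dKO libraries at 0 h, and Kdm5a at 105, 74.5 and 106 against 26.0 and 27.5 CPM. 3′-end reads do not show the deleted bases, and degrons act on protein, so mRNA of Dpy30 or Rbbp5 does not check the depletion.

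Promoter sequences were matched for 75 of the 89 genes in RefSeq (GRCm38.p6), each from 250 bases before to 50 bases after the start. The NRF1 motif CGCATGCG stood in 11 of the 75 (14.7%), against 2.07% of all 27025 gene symbols with a promoter sequence. The ETS motif CGGAAG (or, read on the other strand, CTTCCG) stood in 32 (42.7%) against 18.8%. The YY1 motif AAGATGG (or, read on the other strand, CCATCTT) stood in 12 (16%) against 7.28%. A gene counted once if any of its promoters held the motif, so genes with more starts had more chances of a match. Both strands were searched, the NRF1 motif reads the same on both, and the ETS motif ends in the letters with which the YY1 motif begins, so 1 run can hold both. None of the 3 motifs was found in 33 of the 75, against 74.4% of all gene symbols searched. The 4 stretches printed here, from genes that rose together at 24 h, are shown as examples of promoters with at least 2 of the motifs, which 12 of the 75 had, with those motifs in capitals, and each is written 5′ to 3′ on the minus strand, where these 4 genes lie. A match is a description of the letters and not of binding. Atp5f1 (chr3:105959239-105959333) has an ETS motif whose first base stands at -50, counted from the start, and a YY1 motif across the start. Uqcr11 (chr10:80406799-80406906) has an ETS motif at -65 and an NRF1 motif across the start. Cox6a1 (chr5:115348949-115349139) has an NRF1 motif at -161 and an ETS motif at -16, and Atp5g2 (chr15:102671061-102671277) an ETS motif at -210 and an NRF1 motif at -41.
Atp5f1: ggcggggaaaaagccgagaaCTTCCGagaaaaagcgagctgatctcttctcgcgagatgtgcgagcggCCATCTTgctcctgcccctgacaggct
Uqcr11: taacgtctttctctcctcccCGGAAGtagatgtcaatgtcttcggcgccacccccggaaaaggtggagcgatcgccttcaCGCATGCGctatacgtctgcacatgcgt
Cox6a1: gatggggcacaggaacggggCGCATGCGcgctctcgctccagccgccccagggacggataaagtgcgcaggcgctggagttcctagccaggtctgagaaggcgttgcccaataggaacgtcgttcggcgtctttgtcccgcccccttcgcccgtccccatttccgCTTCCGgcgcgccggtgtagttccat
Atp5g2: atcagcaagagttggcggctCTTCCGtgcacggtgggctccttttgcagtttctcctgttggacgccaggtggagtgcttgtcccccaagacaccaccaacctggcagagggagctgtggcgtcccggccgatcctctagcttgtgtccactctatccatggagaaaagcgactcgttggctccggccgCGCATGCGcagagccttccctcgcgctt

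Respiratory chain genes gave abundant but weakly labelled RNA. Of the 89 genes in DPY30–mAID cells at 0 h, 85 reached 1 CPM and 58 reached 100 CPM, with a median of 142 CPM. Atp5b, which encodes the catalytic β subunit of ATP synthase, gave the most reads (1054 ± 61 CPM, SD, n = 3), followed by Atp5g3 (891 ± 30), Atp5a1 (870 ± 120) and Cox5a (801 ± 112), and the SDs of the last 3 overlap. In the other complexes the most reads came from Ndufa10 (499 ± 23), Ndufaf4 (105 ± 20), Sdhb (251 ± 24) and Uqcrq (544 ± 19). Among the subunits known from other tissues, Cox6b2 had 32.6 ± 2.5 CPM and the others were lower: Cox7a1 had 42 reads and Cox4i2 14 reads among the 7615500 of the 3 libraries, Cox7b2 had 5, and Cox8b and Cox8c had none, which allows up to 0.394 CPM (3 reads).

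The share of a gene's reads with T>C at 0 h is a partial measure of how much of its RNA was made in the last hour. Reads of new RNA without a conversion are missed, and their number depends on the T positions covered. The share was low across the chain in all 3 lines. Among genes with at least 30 T>C reads in DPY30–mAID cells, the 65 respiratory chain genes had a median share of 6.09% against 21.5% over all 5599 such genes. The limit is on T>C reads, so genes with few reads entered only with a high share. Medians and quartiles over all genes are thus raised, and the members' percentiles lowered, by an amount that was not tested. Of these 65, 60 lay below the lower quartile of all genes (14.1%). The median of 52 members in RBBP5–FKBP cells was 3.92% against 12.7%, with 49 below the lower quartile, and in dKO cells the median of 63 members was 2.41% against 7.07%, with 59 below it. Reads in the dKO line were shorter, covering 11.2 to 11.3 T positions a read against 18.4 to 19.0 in DPY30–mAID cells, so shares cannot be set side by side between these lines. Counted as conversions per T position covered, which removes differences in T content, the median member lay at percentile 3.68 of all genes in DPY30–mAID, 3.44 in RBBP5–FKBP and 7.77 in dKO cells.

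Within the chain the medians of the 5 complexes lay close together, and single genes stood apart. Medians in DPY30–mAID cells were 6.15% for complex I, 6.25% for complex II, 6.56% for complex III, 4.53% for complex IV and 6.26% for complex V, and the 2 complex I assembly factors with enough reads had a median of 19.5%. The lowest share was that of Uqcrc1, a core protein of complex III, with 1.72%, 3.45% and 2.61% in the 3 libraries, from 6, 14 and 14 T>C reads. Only Sdhd and Ndufaf4 lay above the median of all genes with at least 30 T>C reads. Sdhd, a membrane anchor of complex II, had 26.1%, 33.9% and 27.4% from 12, 19 and 17 T>C reads. Ndufaf4, an early complex I assembly factor, had 25.8%, 25.1% and 25.6% from 63, 58 and 80 T>C reads. Ndufaf4 was also the highest member in RBBP5–FKBP cells (21.7%, 11.4% and 14.3%) and above all but Sdhd in dKO cells (8.82% and 11.5%). The order of the members was alike in the 3 lines, with Spearman's rho of 0.66 over 51 genes, 0.69 over 58 and 0.57 over 48, given as a description because the lines share base composition and transcript length.

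**Figure D1:**
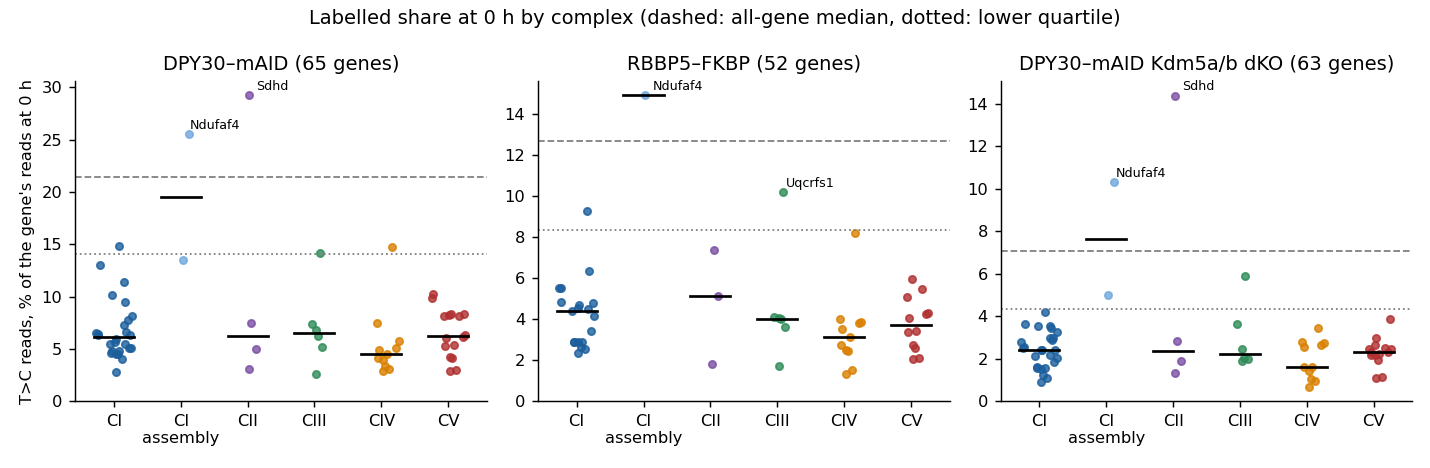
T>C reads as a percentage of each gene's reads at 0 h (y axis) for members with at least 30 T>C reads, by complex (x axis) in the 3 SLAM-seq lines. Each point is 1 gene with libraries pooled, and black bars are medians of a complex. The dashed line is the median and the dotted line the lower quartile of all genes with that many T>C reads. Sdhd and Ndufaf4 stand above the dashed line in DPY30–mAID and dKO cells.

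After 24 h of auxin, reads from the chain rose as a group in DPY30–mAID cells. The 89 genes held 2.08%, 2.06% and 2.04% of all reads at 0 h, and 2.81%, 3.03% and 3.03% at 24 h, with no overlap. Of 84 members tested, 52 were higher and 2 lower at 24 h (edgeR quasi-likelihood test, Benjamini-Hochberg adjusted p under 0.05), that is 61.9% and 2.38%, where 15.9% of all 9848 genes were higher and 17% lower. The median log2 fold change was 0.54 over the members and 0.01 over all genes. The rises ran from 0.24 to 2.44 on the log2 scale, and 5 of the 52 exceeded 1. CPM is a share of the library, and in these bulk samples more RNA from these genes cannot be told apart from less RNA from others. At 24 h the 8 ES cell markers summed to 7657 to 8249 CPM against 8781 to 9654 at 0 h, 5 neural markers to 52.2 to 70.2 against 105 to 125, and 6 primitive endoderm markers to 33.0 to 44.1 against 41.3 to 78.1. The part of these changes in the rise was not tested.

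**Figure D2:**
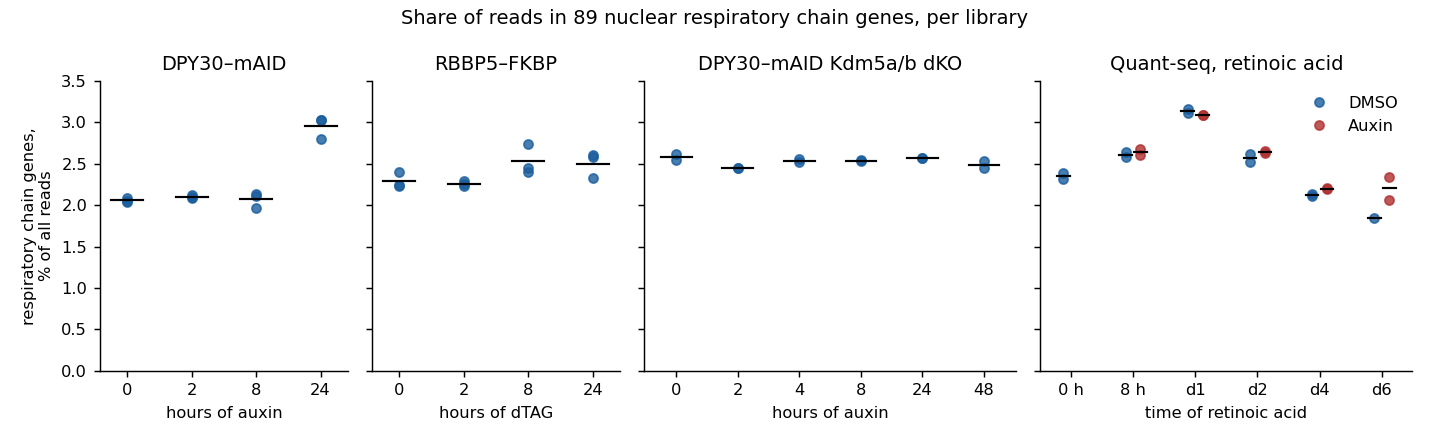
Percentage of all reads that fell in the 89 genes (y axis) in each library (points) with group means (bars), by hours of auxin or dTAG-13 in the 3 SLAM-seq lines and by time of RA in Quant-seq with DMSO or auxin. DPY30–mAID libraries rose from 2.04% to 2.08% at 0 h to 2.81% to 3.03% at 24 h, and DMSO libraries in RA peaked on day 1 and were lowest on day 6.

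In complex I, 21 of 36 genes were higher and none lower. Among the 7 core subunits, which carry the redox centres, Ndufv2 alone passed the test, with a log2 fold change of 0.84, and the other 6 had values between -0.18 and 0.37. The rest of the rises were in accessory subunits and in Ndufa4 (log2 fold change 0.64) and Ndufa4l2, which were kept here by their symbols. Ndufb2, a small membrane-arm subunit, had 38.6, 25.3 and 36.6 CPM at 0 h and 65.8, 91.7 and 90.0 CPM at 24 h. All 3 treated libraries lay above all controls, and the log2 fold change was 1.30 ± 0.22 (SE, adjusted p = 7.24e-06). Ndufb2 ends at 39603382 on chromosome 6 (plus strand, mm10). The 2 intervals counted for it span 39598341 to 39610381 and hold 11015 bases, so reads from beyond the gene may be included. Ndufs4, an accessory subunit known for its loss in Leigh syndrome, had 101, 115 and 128 CPM at 0 h and 189, 226 and 206 CPM at 24 h. Its groups did not overlap, with a log2 fold change of 0.84 (adjusted p = 1.43e-05). Ndufa4l2, a paralogue of Ndufa4 known for its induction in hypoxia, had 0.488, 1.43 and 4.71 CPM at 0 h, 10.7, 5.32 and 14.6 CPM at 8 h and 9.63, 13.6 and 14.9 CPM at 24 h. It was a rare transcript that rose by 2.02 ± 0.66 at 8 h (adjusted p = 0.0329) and by 2.44 ± 0.66 at 24 h (adjusted p = 0.00302) on the log2 scale. The 8 h value missed the threshold without the first or second 0 h library (1.63 and 1.77) or the first or the third 8 h library (1.99 and 1.68), and it was 3.16 without the third 0 h library.

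Of 7 complex I assembly factors tested, Ndufaf7 and Ndufaf8 were higher. Ndufaf7, a methyltransferase that acts on a core subunit, had 7.32, 13.2 and 14.9 CPM at 0 h and 31.3, 47.0 and 43.6 CPM at 24 h, a log2 fold change of 1.75 ± 0.33 (adjusted p = 3.2e-05). In complex II the subunits parted. Sdha, the flavoprotein that oxidises succinate, had 157, 199 and 200 CPM at 0 h and 132, 140 and 113 CPM at 24 h, and fell by 0.55 ± 0.14 on the log2 scale (adjusted p = 0.00158). Its iron–sulphur partner Sdhb rose, from 279, 237 and 237 CPM to 307, 356 and 332 CPM (log2 fold change 0.39 ± 0.12, adjusted p = 0.00768). The membrane anchors Sdhc and Sdhd also rose, by 0.81 ± 0.15 (adjusted p = 1.88e-05) and 0.83 ± 0.30 (adjusted p = 0.0261). Sdhb missed the threshold without the second 24 h library (0.33), and Sdhd, which had 20.0 to 22.5 CPM at 0 h, without the second or the third 0 h library (0.78 and 0.85) or the first or the third 24 h library (0.77 and 0.69). In each of the 4 genes the groups did not overlap.

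In complex III, 5 of 7 genes were higher. Uqcrh, the hinge protein that helps cytochrome c bind, had 351, 312 and 298 CPM at 0 h and 544, 641 and 620 CPM at 24 h, without overlap and with a log2 fold change of 0.90 (adjusted p = 5.3e-09). Uqcrc1 and Uqcrq did not pass the test, with log2 fold changes of 0.09 and 0.15. In complex IV, 9 of 13 genes were higher, all of them subunits with broad expression or, in Cox7a2l, a factor that joins complexes III and IV. Cox7b had 419, 421 and 423 CPM at 0 h and 690, 712 and 710 CPM at 24 h, with no overlap (log2 fold change 0.73 ± 0.10, adjusted p = 4.95e-08). Cox4i1, needed early in assembly, rose from 593, 529 and 586 CPM to 797, 854 and 827 CPM (0.53 ± 0.10, adjusted p = 1.69e-05). Cox6a1, Cox6b1, Cox8a and Cox7a2 rose by 0.50 to 0.66 on the same scale. Cox6b2 and Cox7a1, known from testis and muscle, did not pass, with log2 fold changes of 0.33 and 0.72.

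In ATP synthase, 12 of 17 genes were higher, among them 4 of the 5 that encode the catalytic F1 head. Atp5f1, which encodes the b subunit of the stalk that holds the head still, had 441, 518 and 546 CPM at 0 h and 909, 1095 and 1047 CPM at 24 h. The groups stood far apart, with a log2 fold change of 1.01 ± 0.11 (adjusted p = 2.68e-10). Of the 3 genes for the c ring, which have the same mature protein, Atp5g2 rose by 0.41 ± 0.10 (adjusted p = 0.000732), while Atp5g1 and Atp5g3 had log2 fold changes of -0.10 and 0.14 and did not pass. Atp5j fell and is described with the labelled reads.

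Cox7a2l gave the smallest adjusted p of the chain in that line, and most of its reads were multi-mapped. It lies on chromosome 17 (83501918 to 83517330, minus strand, mm10), its CPM were 227, 224 and 220 at 0 h and 569, 637 and 637 at 24 h, and its log2 fold change was 1.45 ± 0.11 (adjusted p = 6.79e-15). However, 70.3% of the reads it received were multi-mapped, so part of this count may belong to a copy. Over 10% of reads were multi-mapped in 19 members of this line, Atp5l, Atp5h, Atp5g1 and Atp5g2 among them. Of the 65 tested members at or under that limit, 39 were higher and 1 was lower.

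Members differ from most genes in having short 3′ intervals (median 243 bases against 1138) and low T>C shares, so other genes in the same range were counted for comparison. In DPY30–mAID cells at 24 h, 21.6% of 2287 other genes with a T>C share between 3.06% and 12.5% were higher, 17.9% of 4303 with an interval of 71.6 to 1387 bases, and 23.7% of 1331 with both. These shares lie between the 15.9% of all genes and the 61.9% of the members. Other lists of mitochondrial and translation genes also held many higher genes. Of 73 genes for mitochondrial ribosomal proteins, 33 were higher and none lower, and of 88 for cytosolic ribosomal proteins 55 were higher and 3 lower. Of 41 further assembly factors and carriers, 12 were higher and 1 lower. Cox14, which stabilises newly made COX1, rose most of these, from 48.0 to 140 CPM (log2 fold change 1.54 ± 0.22, adjusted p = 9.97e-08). Of 13 regulators, 4 were lower and 1 higher, with Pprc1 at 61.9 against 21.1 CPM (-1.56 ± 0.23, adjusted p = 5.05e-07) and Hcfc1 at 253 against 95.5 CPM (-1.41 ± 0.13, adjusted p = 1.17e-12). Among 44 members that rose and had a promoter sequence, 6 had the NRF1, 22 the ETS and 8 the YY1 motif, and among 28 that did not rise, 5, 9 and 4.

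Earlier after auxin the same genes showed little change in total RNA. At 2 h, no member of 84 passed the test in either direction in edgeR or DESeq2, and 2 were lower and 2 higher at an unadjusted p under 0.05. At 8 h, 7 were lower (8.33%, where 7.85% of all genes were) and 1, Ndufa4l2, was higher (1.19%, against 5.32%). Ndufaf4 fell most, from 119, 82.3 and 113 CPM to 61.8, 62.0 and 75.2 CPM, by 0.76 ± 0.18 on the log2 scale (adjusted p = 0.00178). The other 6 were Ndufc2, Ndufb3, Ndufab1, Sdhb, Atp5g2 and Cox8a, with log2 fold changes from -0.28 to -0.55. Sdhb, Atp5g2 and Cox8a were thus lower at 8 h (-0.41, -0.29 and -0.28) and higher at 24 h, and each 8 h call was lost without the first 0 h or without the third 8 h library. Without TMM factors, which lowered all log2 values of 8 h by 0.11, 2 members were lower and 3 higher. The 8 h count rests on single libraries: 3, 2 and 3 members were called without the first or second 0 h or the third 8 h library. At 8 h the 8 ES cell markers summed to 7392 to 7819 CPM, against 8781 to 9654 at 0 h. Their part in these values was not tested.

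**Figure D3:**
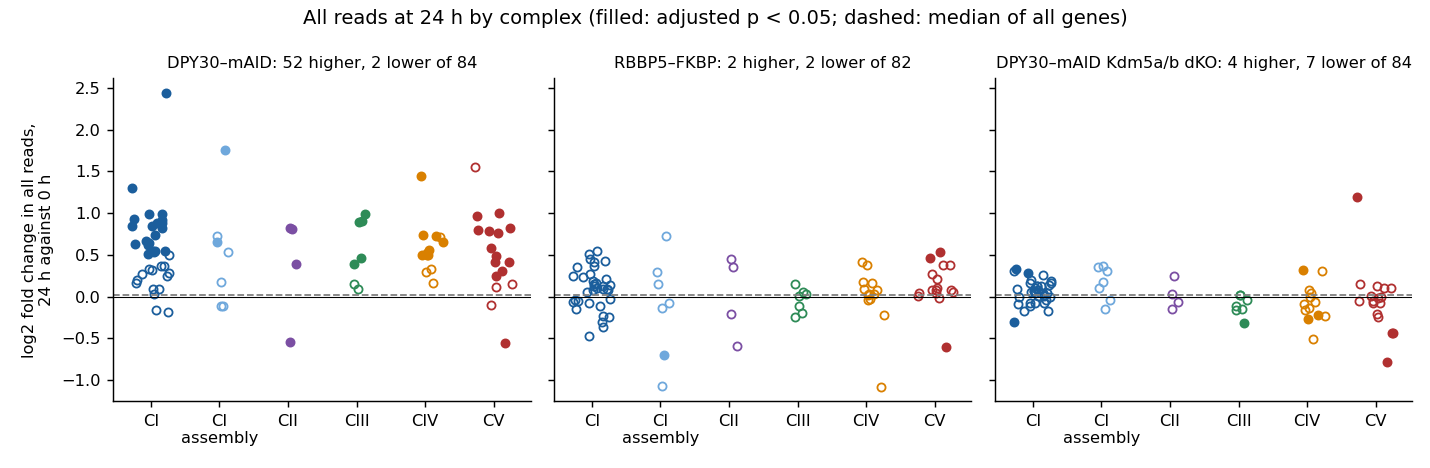
Log2 fold change in all reads at 24 h against 0 h (y axis) for each member by complex (x axis) in the 3 SLAM-seq lines. Filled points passed the test, open points did not, the dashed line is the median of all genes, and 52 of 84 members were higher in DPY30–mAID, 2 of 82 in RBBP5–FKBP and 4 of 84 in dKO cells.

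The rise at 24 h was not seen to the same size in the other lines. In RBBP5–FKBP cells, 2 of 82 members were higher (2.44%, where 3% of all genes were) and 2 lower (2.44%, against 4.34%), with a median log2 fold change of 0.08 over the members and 0.02 over all genes. The higher 2 were Atp5f1, from 643, 530 and 581 CPM to 824, 902 and 862 CPM (0.53 ± 0.11, adjusted p = 0.00352), and Atp5h (0.47 ± 0.14, adjusted p = 0.0486), and the lower 2 were Ndufaf4 and Atp5j. Atp5h, with 68.0% multi-mapped reads, missed the threshold without the second or the third 0 h library (0.40 and 0.46) or the second or the third 24 h library (0.32 and 0.47). Without the third 0 h or the third 24 h library 2 members were called, and without the second 24 h library 1. At 8 h in this line, 5 members were higher (6.1%, where 4.2% of all genes were) and 1 lower (1.22%, against 4.96%). That count was 3 and 1 without the second and the third 0 h libraries, and 0, 2 and 14 without the first, second and the third 8 h libraries. In this line 5 neural markers summed to 69.7 to 84.2 CPM at 0 h, 115 to 121 at 8 h and 84.8 to 123 at 24 h. The 6 primitive endoderm markers summed to 33.4 to 60.7, 89.9 to 111 and 57.6 to 83.4 CPM. The part of these in the members' values was not tested. At 2 h none of 82 passed in edgeR or DESeq2, with 1 lower and 2 higher at an unadjusted p under 0.05. In dKO cells none of 84 passed at 2 or 4 h in either tool, with 15 and 4 lower and 3 and 0 higher at an unadjusted p under 0.05, and at 8 h 1 was lower (Atp5j, where 0.439% of all genes were lower) and 1 higher (Ndufb10, against 0.307%). Both were lost without the first 0 h library (-0.35 and 0.39) or the first (-0.42 and 0.56) or second 8 h library (-0.36 and 0.40). In dKO cells at 24 h, 4 of 84 were higher (4.76%, against 5.15%) and 7 lower (8.33%, against 6.02%), and at 48 h, 2 were higher (2.38%, against 6.59%) and 19 lower (22.6%, against 7.93%). The 48 h median over the members was -0.08. In dKO cells the 8 ES cell markers summed to 6689 to 6958 CPM at 0 h, 5938 to 5943 at 24 h and 6041 to 6144 at 48 h, and their part in the members' values was not tested. Without TMM factors 5 were lower and 6 higher at 24 h and 13 lower and 7 higher at 48 h in dKO cells, and 2 were lower and 5 higher at 24 h in RBBP5–FKBP cells. Cox7b, with 30.4% multi-mapped reads in dKO cells, fell there from 949 and 952 CPM at 0 h to 689 and 734 CPM at 48 h (-0.51 ± 0.06, adjusted p = 6.22e-05). Without the second dKO library of 0 h, 13 members were called at 48 h, and without either of the 24 h libraries 4 were called at 24 h.

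The difference of the 24 h effect between lines was tested in 1 fit for each pair, an addition made after the data were seen. Both pairs share the DPY30–mAID libraries. Against DPY30–mAID, the effect was lower in dKO cells for 46 of 84 members and higher for none, where it was lower for 8.37% of all genes, and it was lower in RBBP5–FKBP cells for 25 of 84 and higher for none, where it was lower for 5.92% of all genes. Among members with at most 10% multi-mapped reads, 21 of 49 differed in dKO and 17 of 65 in RBBP5–FKBP cells. At 2 and 8 h, no member passed the test in edgeR for either pair, with 7 and 3 members lower and 2 and 6 higher in dKO, and 0 and 2 lower and 1 and 18 higher in RBBP5–FKBP cells, all by an unadjusted p under 0.05. DESeq2 called 1 member at 8 h, in RBBP5–FKBP cells.

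Ndufb2, whose counted intervals run past the end of the gene, differed in both. It had 191 and 177 CPM at 0 h and 149 and 161 CPM at 24 h in dKO cells, where it fell by 0.30 ± 0.09 on the log2 scale, and missed the threshold without any 1 of its 4 libraries (-0.25 to -0.37). It had 59.1, 44.9 and 35.2 against 28.8, 52.2 and 46.8 CPM in RBBP5–FKBP cells, where the groups overlapped. The difference of its effect from that in DPY30–mAID cells was -1.62 ± 0.23 (adjusted p = 3.8e-06) in dKO and -1.45 ± 0.38 (adjusted p = 0.00724) in RBBP5–FKBP cells. Cox7b, at 401, 473 and 439 CPM against 411, 485 and 515 CPM in RBBP5–FKBP cells, differed by -0.66 ± 0.15 there (adjusted p = 0.00233) and by -0.97 ± 0.11 in dKO cells (adjusted p = 1.83e-07). Sdhb had 326, 216 and 245 CPM at 0 h and 217, 171 and 147 CPM at 24 h in RBBP5–FKBP cells, where the groups just overlapped, and the difference was -0.99 ± 0.22 (adjusted p = 0.0019). For 10 members in dKO and 3 in RBBP5–FKBP cells the difference exceeded 1 on the log2 scale.

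The lines also differed before treatment. At 0 h, 38 of 84 members were higher in dKO than in DPY30–mAID cells (45.2%, where 24.7% of all genes were) and 22 lower (26.2%, against 21.6%). Cox6c, a complex IV subunit, stood at 1454 ± 42 CPM (SD, n = 2) in dKO and 370 ± 19 CPM (n = 3) in DPY30–mAID cells (log2 difference 1.95 ± 0.08, adjusted p = 1.08e-19), and Atp5d at 115 ± 3.6 against 304 ± 27 CPM (-1.43 ± 0.12, adjusted p = 3.39e-12). Read length and the share of multi-mapped reads (32.0% to 34.3% in dKO, 21.8% to 25.9% in DPY30–mAID libraries) differed between the libraries of these lines as well. In the same libraries of 0 h the 8 ES cell markers summed to 6689 to 6958 CPM in dKO and 8781 to 9654 in DPY30–mAID cells, 5 neural markers to 41.5 to 47.5 against 105 to 125, 5 RA response markers to 77.9 to 101 against 8.30 to 10.1, and 4 fibroblast markers to 20.00 to 25.02 against 1.78 to 2.54. The part of these in the members' levels was not tested, and line, clone, read length and multi-mapping cannot be told apart in these levels.

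T>C reads, scaled by the total reads of each library, report synthesis in the last hour, and where members passed the test they were lower. At 2 h no member passed in any line in edgeR, with 1 of 70, 3 of 56 and 3 of 70 lower at an unadjusted p under 0.05, and DESeq2 called 2 in RBBP5–FKBP cells. In DPY30–mAID cells at 8 h, 8 of 70 members were lower (11.4%, where 16.1% of all genes were), with a median log2 fold change of -0.63 against -0.72 over all genes. This time holds the library with 5.51% T>C reads. Without it 3 members were called, without the 9.82% library 5, and without the 13.0% library 18, and without the first, second or the third 0 h library 2, 3 and 5 were called. At 24 h none was lower in edgeR (where 2.72% of all genes were), 1 was lower and 6 were higher at an unadjusted p under 0.05, DESeq2 called 1 higher, and the median was 0.33 against -0.14 over all genes. In RBBP5–FKBP cells, 3 of 56 members were lower at 8 h (5.36%, against 7.52%) and 6 at 24 h (10.7%, against 25.9%). Without a single library these counts were 0 to 2 at 8 h, and at 24 h they were 3 and 2 without the first and second 0 h libraries and 3 and 2 without the first and second 24 h libraries. In dKO cells, 27 of 70 were lower at 24 h (38.6%, against 42.2%) and 53 at 48 h (75.7%, against 72.3%), with medians of -0.60 and -1.17 against -0.80 and -1.29. Without the second 0 h library of dKO cells, 8 were called at 24 h and 35 at 48 h, and without the second 24 h library 10 were called at 24 h. Earlier in dKO cells, 1 was lower at 4 h (1.43%, against 0.453%) and 2 at 8 h (2.86%, against 1.12%). No member was higher in any line and time in edgeR. These counts depend on the scaling. Scaled by T>C reads, which sets the centre of all genes near no change, 1 member was higher and none lower at 8 h and 7 higher and none lower at 24 h in DPY30–mAID cells, none passed in RBBP5–FKBP cells, and 1 was lower and 2 higher at 24 h and 4 lower and 3 higher at 48 h in dKO cells.

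The ratio of T>C reads to all reads of a gene gave counts near those of T>C reads in dKO cells at 24 and 48 h. Counts differed more in DPY30–mAID cells at 8 h and in RBBP5–FKBP cells at 8 and 24 h. Of 70 members, 4 were lower at 8 h in DPY30–mAID cells (5.71%, where 6.27% of all genes were), with none called without any 1 of the 0 h libraries and 18 and 1 without the first and second 8 h libraries. Of 56 in RBBP5–FKBP cells, 1 was lower at 8 h (1.79%, against 3.86%) and 9 at 24 h (16.1%, against 27.3%), with 4 called at 24 h without the first 0 h or the second 24 h library. In dKO cells 2 of 70 were lower at 4 h (2.86%, against 0.553%), 1 at 8 h (1.43%, against 0.251%), 29 at 24 h (41.4%, against 48%) and 51 at 48 h (72.9%, against 76.3%), and without the second 0 h or the second 24 h library 11 and 14 were called at 24 h. Where total reads of the chain had risen, after 24 h of auxin in DPY30–mAID cells, no ratio passed the test in edgeR, with 5 lower and 1 higher at an unadjusted p under 0.05 and a median of -0.08 against -0.04. The 24 h effect on T>C reads was compared between dKO and DPY30–mAID cells in 1 fit: none of 74 members passed in edgeR (where 3.22% of all genes were lower), 28 were lower at an unadjusted p under 0.05 and DESeq2 called 6. At 2 and 8 h none passed in edgeR either, with none lower and 1 and 9 higher at an unadjusted p under 0.05, and DESeq2 called 0 and 1.

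The called falls in T>C reads included abundant genes of ATP synthase. Atp5b had 89.8, 77.0 and 92.0 T>C CPM at 0 h, 55.4, 47.9 and 21.0 at 8 h and 122, 110 and 94.4 at 24 h in DPY30–mAID cells. It was lower in all 3 libraries of 8 h (-1.16 ± 0.32 on the log2 scale, adjusted p = 0.00914) and not at 24 h, and scaled by T>C reads the 8 h value was -0.46 and did not pass. Atp5a1, the F1 α subunit, fell in RBBP5–FKBP cells from 46.2, 60.7 and 53.4 T>C CPM to 27.0, 37.7 and 24.6 at 24 h (-0.87 ± 0.28, adjusted p = 0.0151), but its value was 0.02 when scaled by T>C reads, and it missed the threshold without the second 0 h library (-0.77) or the first or the third 24 h library (-0.80 and -0.75). In dKO cells Ndufa6, an accessory subunit of the LYR family, fell from 7.65 and 6.80 T>C CPM to 1.98 and 1.34 at 48 h (-2.20 ± 0.36, adjusted p = 1.74e-07), with 24.8% of its reads multi-mapped in this line. Scaled by T>C reads it had -0.90 and did not pass.

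Ndufaf4 fell in T>C reads, scaled by all reads, in each of the 3 lines. The gene lies on chromosome 4 (24898083 to 24905001, plus strand, mm10), and 0.153% of its reads in DPY30–mAID cells were multi-mapped. It had 30.8, 20.7 and 29.0 T>C CPM at 0 h in that line, 20.5, 12.6 and 5.01 at 8 h and 26.9, 23.3 and 26.6 at 24 h. Libraries of 8 h lay below all controls (-1.17 ± 0.42, adjusted p = 0.0442), and the 24 h libraries lay within their range. The 8 h fall missed the threshold without any 1 of the 0 h libraries (-1.06, -1.32 and -1.11) or without the second or the third 8 h library (-1.17 and -0.79). The gene fell in RBBP5–FKBP cells from 20.3, 13.7 and 14.2 to 4.43, 3.26 and 3.37 T>C CPM at 24 h (-2.13 ± 0.53, adjusted p = 0.00169). In dKO cells it fell from 5.15 and 7.44 to 2.73 and 1.21 at 24 h (-1.72 ± 0.39, adjusted p = 0.00028) and to 1.07 and 0.891 at 48 h (-2.76 ± 0.44, adjusted p = 1.23e-07). Scaled by T>C reads in place of all reads, the values were -0.51 at 8 h in DPY30–mAID, -1.22 in RBBP5–FKBP and -0.93 and -1.46 at 24 and 48 h in dKO cells, and of these the last passed the test (adjusted p = 0.0292). Its all reads fell at 8 h in DPY30–mAID and at 24 h in RBBP5–FKBP cells, where they went from 93.7, 120 and 98.8 CPM to 61.6, 66.2 and 68.9 CPM (-0.70 ± 0.20, adjusted p = 0.0319). That fall missed the threshold in each fit without 1 library other than the first 0 h library, with values from -0.59 without the second 0 h library to -0.74 without the third 24 h library.

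Atp5j, which encodes coupling factor 6 of the ATP synthase stalk, was lower in all reads in each of the 3 lines, with the largest values in dKO cells. The gene lies on the minus strand of chromosome 16 (84827866 to 84835625, mm10) and overlaps the start of Gabpa, which runs the other way from 84834925. In dKO cells Atp5j had 343 and 319 CPM at 0 h and 200 and 199 CPM at 24 h (-0.78 ± 0.06, adjusted p = 1.79e-06), and its T>C reads fell from 12.4 and 13.1 to 3.16 and 2.88 T>C CPM (-2.12 ± 0.30, adjusted p = 3.13e-08). Its T>C reads were already lower there at 4 h (-1.37, adjusted p = 0.00388) and at 8 h (-1.47, adjusted p = 0.000535). The 4 h call was lost without the second 0 h (-1.30) or the first 4 h library (-1.05), and the 8 h call without the first 8 h library (-1.49). DPY30–mAID cells had 149, 138 and 166 CPM at 0 h and 76.6, 137 and 95.7 CPM at 24 h (-0.56 ± 0.16, adjusted p = 0.00537), and in RBBP5–FKBP cells 241, 176 and 224 against 125, 150 and 156 CPM (-0.60 ± 0.16, adjusted p = 0.0205). The groups did not overlap in any line, though 138 and 137 CPM nearly met in DPY30–mAID cells. The value missed the threshold there without the first 24 h library (-0.37), and in RBBP5–FKBP cells without the first or the third 0 h library (-0.50 and -0.56) or the first or second 24 h library (-0.51 and -0.64). In every line at least 99.8% of its reads were multi-mapped, so the value cannot be assigned to this gene alone.

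In the RA series with DMSO, total reads of the chain first rose and then fell. RA was given in medium without LIF, and cells without RA were not analysed here after 0 h. RA, the loss of LIF and time in culture cannot be told apart. The 89 genes held 2.32% and 2.39% of reads at 0 h, 2.59% and 2.64% at 8 h, 3.16% and 3.11% on day 1, 2.52% and 2.62% on day 2, 2.12% and 2.14% on day 4 and 1.85% in the 1 sample of day 6. Of 85 members tested against 0 h, 19 were higher at 8 h (22.4%, where 9.21% of all genes were) and none lower in edgeR (where 9.08% of all genes were), with none lower at an unadjusted p under 0.05. Leaving out 1 library at a time gave 7 to 12 calls at 8 h: 12 without the first and 7 without the second 0 h library, 12 without the first and 8 without the second 8 h library. On day 1, 47 were higher (55.3%, against 26.2%) and 5 lower (5.88%, against 25.5%). On day 2, 19 were higher (22.4%, against 25.1%) and 11 lower (12.9%, against 22.9%). On day 4, 3 were higher (3.53%, against 28.7%) and 37 lower (43.5%, against 25.6%), and on day 6, 3 were higher (3.53%, against 29.1%) and 53 lower (62.4%, against 26.1%). The median log2 fold change went from 0.20 at 8 h to 0.43, 0.09, -0.29 and -0.55 on the following days, against 0.00 to 0.06 over all genes. Without TMM factors, which lowered every log2 value by 0.08 on day 2, 0.15 on day 4 and 0.20 on day 6, 4 members were lower and 31 higher on day 2 and 24 lower and 8 higher on day 4.

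Day 6 is 1 sample, and its tests take the spread from the other groups. All 5 times share the 2 libraries of 0 h. Of the 47 members higher on day 1, 30 were lower on day 6, 2 were higher on day 6, and 13 of the 85 were called at neither time. Over the same time the 8 ES cell markers went from 6670 and 6918 CPM at 0 h to 7391 and 7491 on day 1 and 1854 on day 6, and the 6 primitive endoderm markers from 31.1 and 31.4 CPM to 35.8 and 37.4 on day 1 and 3888 on day 6. The 5 RA response markers summed to 20.1 to 22.8 CPM at 0 h, 1437 to 1534 on day 1 and 837 on day 6. At these times the 5 neural markers summed to 110 to 118, 62.8 to 72.7 and 33.5 CPM. The 4 fibroblast markers summed to 35.0 to 45.2, 4.88 to 6.61 and 21.1 CPM. A change in the kinds of cells and a change within cells cannot be told apart here. Over 10% of reads were multi-mapped in 36 members, and among the others 22 were higher and 5 lower on day 1, and 3 higher and 29 lower on day 6.

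**Figure D4:**
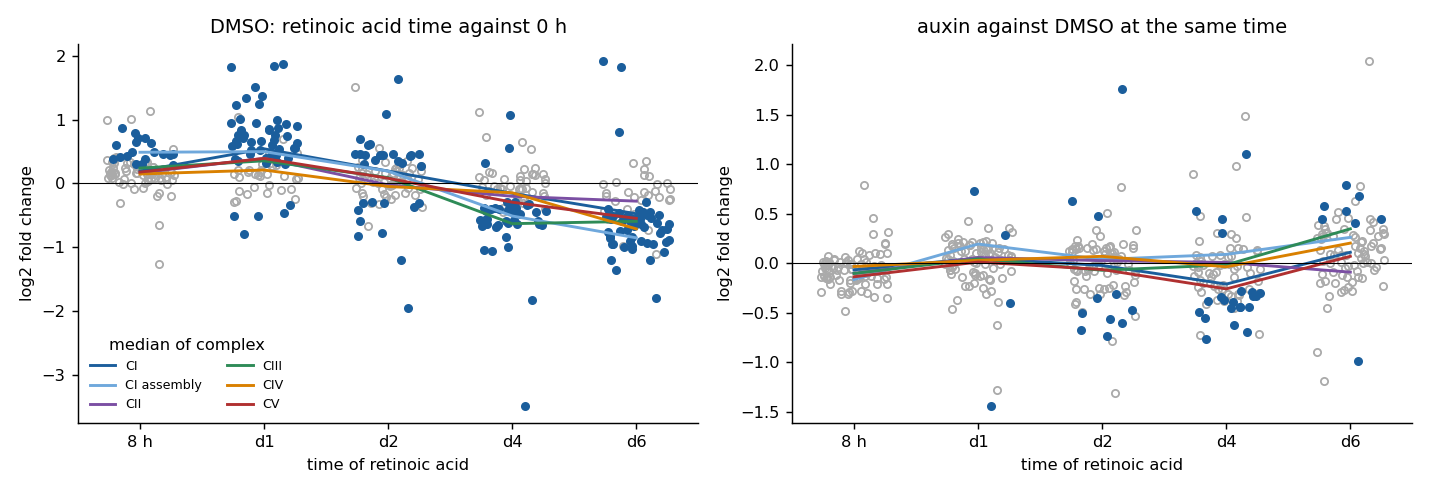
Log2 fold change (y axis) of each member over RA time (x axis), in DMSO against 0 h (left) and with auxin against DMSO at the same time (right). Filled points passed the test, lines join the medians of the complexes, and Ndufa4l2 on day 6 in DMSO is not drawn because it had no read.

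On day 1, 22 of 36 complex I genes were higher and none lower, as were 10 of 17 ATP synthase genes with none lower, and 6 of 15 complex IV genes were higher and 2 lower. Ndufb8, an accessory subunit whose protein is a common marker of assembled complex I, had 482 and 491 CPM at 0 h, 842 and 855 at 8 h, 1247 and 1308 on day 1, 777 and 805 on day 2, 539 and 516 on day 4 and 354 on day 6. It was higher by 0.87 ± 0.11 (adjusted p = 3.78e-06) on the log2 scale at 8 h and lower by the end (-0.66, adjusted p = 0.00042). Atp5e, the F1 ε subunit, with 10.2% multi-mapped reads, had the same order, with 228 and 231 CPM at 0 h, 379 and 375 at 8 h, 563 and 558 on day 1 and 181 on day 6, and rose by 0.78 ± 0.09 at 8 h (adjusted p = 7.39e-07). Ndufb7 also rose, from 26.9 and 23.6 CPM to 67.3 and 67.2 on day 1, and was still higher on day 6 at 50.7 CPM (0.80 ± 0.28, adjusted p = 0.0152), though not past the threshold without the second 0 h library (0.71).

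Uqcrc1 and Uqcrfs1, which encode a core protein and the Rieske iron–sulphur protein of complex III, were lower from day 1. Uqcrc1 went from 149 and 186 CPM to 128 and 115 on day 1 (-0.51 ± 0.12, adjusted p = 0.00126) and 101 and 106 on day 2 (-0.78 ± 0.13, adjusted p = 1.22e-05). Uqcrfs1 went from 260 and 280 CPM to 188 and 204 on day 1 and 175 and 148 on day 2 (-0.83 ± 0.13, adjusted p = 8.83e-06). The day 1 calls missed the threshold without the second 0 h library (-0.26 and -0.37) and, for Uqcrc1, without the second (-0.36) and, for Uqcrfs1, without the first library of day 1 (-0.37). In the same complex Uqcrq, with 27.1% multi-mapped reads, rose from 417 and 383 CPM to 751 and 727 on day 1 and then fell to 284 and 291 on day 4 and 200 on day 6 (-1.20 ± 0.13, adjusted p = 1.26e-08), and all 7 members of complex III were lower on day 6.

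Several subunits have forms known from other tissues, and their levels during RA are given here. Cox6b2, the testis form of subunit 6B (chromosome 7, 4751792 to 4753094, minus strand, mm10), had 69.0 and 61.7 CPM at 0 h, 52.1 and 45.2 on day 1, 15.5 and 20.0 on day 2, 20.7 and 20.1 on day 4 and 21.6 on day 6. It fell by 1.95 ± 0.21 on the log2 scale by day 2 (adjusted p = 1.85e-08). Its broadly expressed paralogue Cox6b1 did not pass the test then, with a log2 fold change of 0.16 ± 0.11 (adjusted p = 0.224), and the difference between the paralogues was not tested. Cox7a1, the heart and muscle form of subunit 7A, rose from 4.03 and 4.32 CPM to 15.7 and 15.4 on day 1 (1.83 ± 0.38, adjusted p = 0.000233) and stood at 6.17 on day 6. Cox8c, the testis form of subunit 8, rose from 1.34 and 1.18 to 3.26 and 6.61 CPM on day 1, which are 3, 3, 6 and 12 reads (1.87 ± 0.61, adjusted p = 0.0128), and missed the threshold without the second 0 h (1.86) or the second day 1 library (1.36). Ndufa4l2 had 8.06 and 7.08 CPM at 0 h, 15.7 and 15.4 on day 1, 3.09 and 3.73 on day 2, 0 and 1.40 on day 4 and no read among 2269595 on day 6. Against the level of 3 reads in that library it was at least 5.73-fold lower than at 0 h.

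Sdhd varied between libraries of a group and its values carry little weight. It had 34.5 and 5.13 CPM on day 2, 39.2 and 12.6 on day 4, 57.7 in the 1 sample of day 6, and 53.6 and no reads in the 2 auxin libraries of day 6. Its rise on day 6 (1.83 ± 0.75, adjusted p = 0.0417) thus rests on 1 library, and it missed the threshold without the first or the second 0 h library (1.90 and 1.75). Other lists are given against the 26.2% of all genes higher and 25.5% lower on day 1 and the 29.1% and 26.1% on day 6. On day 1, 52 of 88 cytosolic ribosomal protein genes were higher and 6 lower, and 29 of 73 mitochondrial ones were higher and 13 lower. On day 6, 79 and 51 of these were lower and 3 and none higher. Of 13 regulators, 10 were lower and none higher on day 1, Pprc1 most among them, at 62.8 against 11.2 CPM (-2.53 ± 0.25, adjusted p = 3.78e-09).

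**Figure D5:**
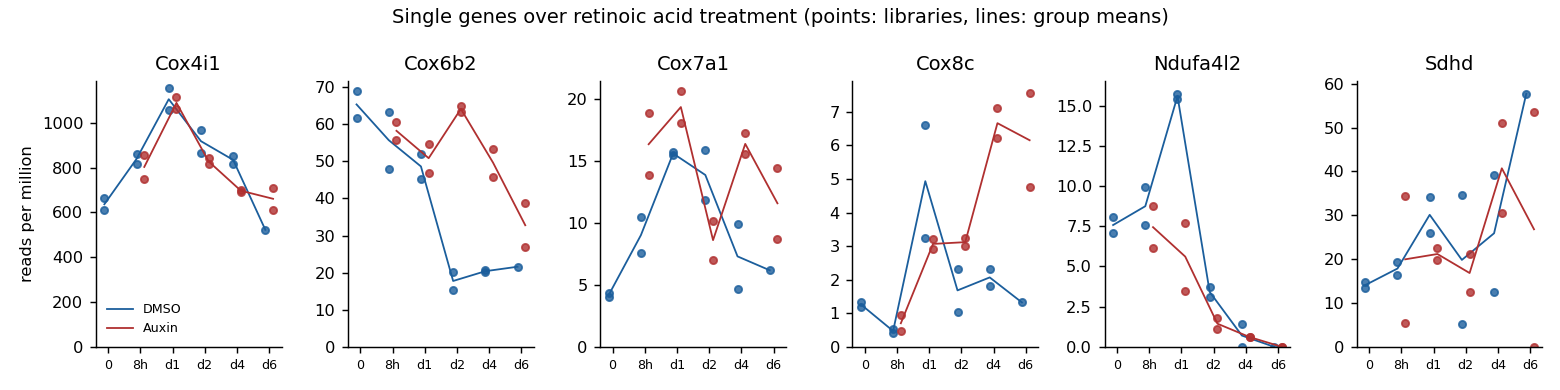
CPM (y axes, each from 0) of 6 genes over RA time in DMSO and auxin, with a point for each library and lines through group means. Cox6b2 stood at 15.5 and 20.0 CPM on day 2 in DMSO and at 64.9 and 63.4 with auxin, Ndufa4l2 peaked on day 1 in DMSO and reached 0 on day 6, and the libraries of Sdhd lay far apart within groups.

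Depleting DPY30 during RA changed few members at first and more on day 4. At 8 h none of 85 passed in edgeR or DESeq2, and 3 were lower and 1 higher at an unadjusted p under 0.05. On day 1, 2 were lower (2.35%, where 2.97% of all genes were) and 2 higher (2.35%, against 4.27%). On day 2, 8 were lower (9.41%, against 7.39%) and 3 higher (3.53%, against 5.96%). On day 4, 18 were lower (21.2%, against 10.4%) and 4 higher (4.71%, against 7.78%). The unscaled totals went the other way then, since the 89 genes held 2.194% and 2.203% of all reads with auxin and 2.116% and 2.137% with DMSO. Without TMM factors 7 members were lower and 9 higher on day 4, 6 and 1 on day 1, and 5 and 4 on day 2. TMM factors lowered every log2 difference by 0.18 on day 4 and by 0.14 on day 6. On day 6, where the DMSO group is 1 sample, 1 was lower (1.18%, against 10.4%) and 7 higher (8.24%, against 7.96%). Calls of these 2 late days depended on single libraries and on scaling: on day 4 they numbered 10 without the first auxin or the first DMSO library and 11 without the second DMSO library, and on day 6 they numbered 26 without the first auxin library and 23 when library sizes were used without TMM factors. On day 2 they numbered 6 and 5 without the first and second auxin library and 3 without the second DMSO library, and on day 1 they numbered 1 without any 1 of the 4 libraries. Markers of cell types moved with auxin too. At 8 h the 8 ES cell markers summed to 5345 to 5396 CPM with auxin against 6181 to 6411 with DMSO. The 5 RA response markers then summed to 173 to 199 against 280 to 282 CPM. On day 1 the 5 neural markers summed to 96.5 to 103 against 62.8 to 72.7 CPM. They summed to 131 to 143 against 109 to 121 on day 2 and 61.2 to 98.1 against 33.5 on day 6. At 8 h and on day 4 their groups overlapped. The 8 ES cell markers summed to 4928 to 4969 CPM with auxin against 7391 to 7491 with DMSO on day 1, 3098 to 3150 against 4296 to 4315 on day 2 and 2273 to 2339 against 3480 to 3504 on day 4. The 5 RA response markers summed to 797 to 835 against 1437 to 1534 CPM on day 1 and 1067 to 1126 against 684 to 699 on day 4. The 6 primitive endoderm markers summed to 265 to 294 against 414 to 419 CPM on day 2, 720 to 745 against 1751 to 1779 on day 4 and 811 to 869 against 3888 on day 6. On day 6 the ES cell markers summed to 2013 to 2024 against 1854 CPM, and 4 fibroblast markers to 31.6 to 32.0 against 7.46 to 13.5 CPM on day 4 and 35.6 to 39.2 against 21.1 on day 6. On day 4, 67 of 88 cytosolic ribosomal protein genes were lower, and the part of any of these in the members' values was not tested.

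Cox6b2 showed the largest effect of auxin in RA among the members that passed the test. On day 2 it had 64.9 and 63.4 CPM with auxin and 15.5 and 20.0 with DMSO, a log2 difference of 1.76 ± 0.22 (adjusted p = 1.99e-06), and on day 4 it had 45.9 and 53.4 against 20.7 and 20.1 CPM (1.11 ± 0.22, adjusted p = 0.000589). Its auxin libraries of day 2 thus lay within the range of the DMSO libraries at 0 h. Ndufaf8, which helps to stabilise another assembly factor, was higher with auxin on days 1, 2, 4 and 6, with 207 and 226 against 129 and 141 CPM on day 1 (0.73 ± 0.12, adjusted p = 0.000264). Uqcrfs1 was higher on days 2 and 4, with 331 and 288 against 178 and 202 CPM on day 4 (0.53 ± 0.13, adjusted p = 0.00502). Ndufaf8 missed the threshold on day 2 without the second auxin or DMSO library (0.38 and 0.46) and on day 4 without either auxin or the second DMSO library (0.46, 0.42 and 0.36). Uqcrfs1 missed it on day 2 without the second auxin or DMSO library (0.43 and 0.53) and on day 4 without the first auxin or DMSO library (0.42 and 0.44).

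Among the members lower with auxin on both day 2 and day 4 were Ndufb2, Ndufa13, Uqcrq, Uqcrh, Atp5e, Atp5l and Atp5j. Uqcrq had 374 and 365 CPM with auxin and 554 and 609 with DMSO on day 2 (-0.74 ± 0.10, adjusted p = 7.59e-06). Ndufa13, an accessory subunit also known as GRIM-19, had 44.7 and 53.4 against 71.6 and 62.0 CPM on day 4 (-0.62 ± 0.18, adjusted p = 0.0143) and 39.2 and 43.5 against 74.5 CPM on day 6 (-0.99 ± 0.22, adjusted p = 0.00197), where it was the 1 member lower. The day 4 value missed the threshold without the first auxin or DMSO library (-0.50 and -0.52). Ndufb2, which had risen after 24 h of auxin without RA, was lower with auxin on day 4 (47.6 ± 2.3 against 71.3 ± 4.0 CPM, SD, n = 2, -0.76 ± 0.15, adjusted p = 0.000741). Ndufa4l2, which had also risen there, had 3.49 and 7.72 CPM with auxin and 15.7 and 15.4 with DMSO on day 1 (-1.44 ± 0.43, adjusted p = 0.0425), a call lost without any 1 of these 4 libraries (-0.99 to -2.12). These assays differ in RA, labelling and read length, so the values stand side by side without a test.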

How the data were processed

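SLAM-seq was analysed in 36 libraries and Quant-seq in 22. Per the file headers and the methods, the authors trimmed reads with cutadapt through Trim Galore, aligned SLAM-seq reads to the mouse genome (GRCm38, mm10) with SlamDunk (version 0.3.4) and deposited, for each 3′ interval, raw counts of reads, of T>C reads and of multi-mapped reads, with T positions covered and conversions. The submitters' processing notes also name HISAT2 (version 2.2.1) and featureCounts for Quant-seq, but the deposited Quant-seq tables have the SlamDunk layout. T>C reads held 1.03 to 1.32 conversions on average, so a read with 1 conversion counted as a T>C read. Counts of the 46420 intervals were summed here to 20177 genes, and all Ensembl identifiers were named from the reference table.

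Members and lists were chosen with earlier results of these data known. Each line was fitted with all its times by edgeR's quasi-likelihood test (edgeR 4.0.16, R 4.3.3, Benjamini-Hochberg adjustment over all genes tested, two-sided), for genes averaging 10 or more reads in any group, with TMM-scaled library sizes from all reads for both all reads and T>C reads. The ratio was tested as T>C reads with all reads of the gene as offset. The difference of effects between lines was fitted with the libraries of both. DESeq2 (1.42.0), no filter, unscaled library sizes, T>C-based scaling, a replicate block, conversions over T positions and leaving out each library were alternatives. Genes with over 10% multi-mapped reads were counted apart. Named genes were subunits with paralogues, the complex II genes, the most abundant gene of each complex, the highest and lowest T>C share, the 3 partners and regulators with the largest changes, and the 5 largest called falls and rises without overlap in a comparison. Other genes named in a comparison were chosen after their values were seen, to list calls in full or to describe a group. Intervals and floors cover counting error only, since reads carry no molecular identifiers. Scripts were tested on simulated data. Replicate numbers were not taken as pairs in the main fits.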

Additional observations from a re-analysis of the deposited data

Results flagged for a closer look

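The 24 h effect on all reads differed between lines for many genes, by a test of the difference itself in 1 fit with the libraries of both lines. Against DPY30–mAID it differed for 46 members in dKO cells. The 5 largest differences among them, on the log2 scale, were -2.61 for Ndufa4l2, -1.62 for Ndufb2, -1.45 for Ndufaf7, -1.26 for Atp5l and -1.24 for Uqcrh, each with edgeR's adjusted p under 0.05 (the largest was 0.0431, for Ndufa4l2). Ndufa4l2 rests on few reads, with 1.18 and 3.21 CPM at 0 h and 1.73 and 2.42 CPM at 24 h in dKO cells, and Atp5l on reads that were 99.8% to 100% multi-mapped. The intervals counted for Ndufb2 run past the end of the gene. In RBBP5–FKBP cells the effect differed for 25 members, led by Ndufb2 at -1.45, Ndufs4 at -1.09, Cox7a2l at -1.04, Sdhb at -0.99 and Atp5mpl at -0.97. Ndufs4 had 169, 155 and 108 CPM at 0 h and 102, 141 and 130 CPM at 24 h in that line, and its groups overlapped. The 2 comparisons share the DPY30–mAID libraries, and line, clone, degron and agent cannot be told apart in them. Groups of 2, 3 or 1 samples were too small to test single libraries for standing apart.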

How the results depend on the processing

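Counts of members called are given here with the value of the report in brackets, and the cause of each change was not tested. Lines are DPY30 (DPY30–mAID), RBBP5 (RBBP5–FKBP) and dKO. The differences between lines in all reads, and the counts over other genes with T>C shares or lengths like those of the members, were added after seeing the data. Calls in all reads at 24 h in DPY30–mAID cells numbered 47 to 51 without 1 library and 53 with DESeq2 (from 54, 2 of them lower), and those of the difference from dKO cells 31 to 48 without 1 library (from 46). With DESeq2 in place of edgeR, the counts called became T>C reads in DPY30 1 (from 0) at 24 h, T>C reads in RBBP5 2 (from 0) at 2 h, T>C reads in dKO 1 (from 2) at 8 h and 15 (from 27) at 24 h, all reads in RBBP5 9 (from 4) at 24 h, auxin in RA 13 (from 22) on day 4 and 5 (from 8) on day 6, difference in T>C reads in dKO 1 (from 0) at 8 h and 6 (from 0) at 24 h, difference in all reads in RBBP5 1 (from 0) at 8 h. Counting only log2 changes over 1, the counts called became T>C reads in dKO 1 (from 2) at 8 h and 10 (from 27) at 24 h, all reads in DPY30 1 (from 8) at 8 h and 5 (from 54) at 24 h, all reads in RBBP5 1 (from 6) at 8 h and 0 (from 4) at 24 h, all reads in dKO 0 (from 2) at 8 h, 1 (from 11) at 24 h, 0 (from 21) at 48 h, T>C ratio in RBBP5 0 (from 1) at 8 h, T>C ratio in dKO 1 (from 2) at 4 h and 12 (from 29) at 24 h, RA 0 (from 19) at 8 h, 9 (from 52) on day 1, 4 (from 30) on day 2, 6 (from 40) on day 4, 10 (from 56) on day 6, auxin in RA 1 (from 4) on day 1, 1 (from 11) on day 2, 1 (from 22) on day 4, 0 (from 8) on day 6, lines at 0 h 16 (from 60) at 0 h, difference in all reads in dKO 10 (from 46) at 24 h, difference in all reads in RBBP5 3 (from 25) at 24 h. With library sizes from T>C reads, the counts called became T>C reads in DPY30 1 (from 8) at 8 h and 7 (from 0) at 24 h, T>C reads in RBBP5 0 (from 3) at 8 h and 0 (from 6) at 24 h, T>C reads in dKO 1 (from 0) at 2 h, 3 (from 27) at 24 h, 7 (from 53) at 48 h. Under that scaling the log2 fold change in T>C reads changed sign to 0.0198 for Atp5a1 and 0.15 for Atp5g3 in RBBP5 at 24 h, to 0.22 for Atp5g2 and 0.20 for Cox7a2l in dKO at 24 h, and to 0.0859 for Cox7b, 0.00823 for Atp5g2, 0.045 for Cox7a2, 0.24 for Cox7a2l, 0.19 for Ndufa4, 0.33 for Sdha and 0.16 for Sdhb in dKO at 48 h. Without TMM factors, the counts called became all reads in DPY30 5 (from 8) at 8 h, all reads in RBBP5 7 (from 4) at 24 h, auxin in RA 7 (from 4) on day 1 and 23 (from 8) on day 6. With no filter on low counts, the counts called became T>C reads in DPY30 5 (from 8) at 8 h, T>C reads in RBBP5 1 (from 3) at 8 h and 3 (from 6) at 24 h, T>C reads in dKO 1 (from 0) at 2 h, all reads in DPY30 1 (from 0) at 2 h, all reads in RBBP5 8 (from 4) at 24 h, all reads in dKO 3 (from 0) at 2 h and 4 (from 2) at 8 h, difference in all reads in dKO 2 (from 0) at 2 h. With a replicate block, the counts called became T>C reads in RBBP5 1 (from 3) at 8 h, T>C reads in dKO 1 (from 0) at 2 h and 2 (from 1) at 4 h, all reads in DPY30 1 (from 0) at 2 h, all reads in RBBP5 3 (from 6) at 8 h, all reads in dKO 1 (from 0) at 2 h, difference in all reads in dKO 1 (from 0) at 2 h, difference in T>C reads in dKO 1 (from 0) at 24 h. The block changed no other count by over 1.5 times. Replicate numbers did not pair the libraries: deviations of equally numbered libraries correlated at -0.04 to 0.05 in DPY30–mAID, -0.18 to 0.14 in RBBP5–FKBP, -0.11 to 0.38 in dKO and -0.19 to 0.28 in Quant-seq libraries. Without members over 10% multi-mapped reads, the counts called became T>C reads in DPY30 4 (from 8) at 8 h, T>C reads in dKO 0 (from 1) at 4 h, 0 (from 2) at 8 h, 12 (from 27) at 24 h, 25 (from 53) at 48 h, all reads in DPY30 5 (from 8) at 8 h, all reads in RBBP5 3 (from 6) at 8 h and 2 (from 4) at 24 h, all reads in dKO 1 (from 2) at 8 h, 4 (from 11) at 24 h, 8 (from 21) at 48 h, RA 9 (from 19) at 8 h, 27 (from 52) on day 1, 18 (from 30) on day 2, 23 (from 40) on day 4, 32 (from 56) on day 6, auxin in RA 7 (from 11) on day 2, 11 (from 22) on day 4, 2 (from 8) on day 6. With conversions over T positions, the counts called became T>C ratio in DPY30 1 (from 4) at 8 h, T>C ratio in dKO 1 (from 2) at 4 h and 0 (from 1) at 8 h. Leaving out 1 library at a time gave T>C reads in DPY30 2 to 18 at 8 h, T>C reads in RBBP5 0 to 1 at 2 h, 0 to 2 at 8 h, 2 to 6 at 24 h, T>C reads in dKO 0 to 1 at 2 h, 0 to 2 at 4 h, 0 to 2 at 8 h, 8 to 26 at 24 h, 35 to 50 at 48 h, all reads in DPY30 0 to 1 at 2 h and 2 to 8 at 8 h, all reads in RBBP5 0 to 14 at 8 h and 1 to 6 at 24 h, all reads in dKO 0 to 3 at 2 h, 0 to 2 at 8 h, 4 to 12 at 24 h, 13 to 21 at 48 h, T>C ratio in DPY30 0 to 18 at 8 h, T>C ratio in RBBP5 0 to 1 at 2 h, 0 to 2 at 8 h, 4 to 13 at 24 h, T>C ratio in dKO 0 to 1 at 4 h, 0 at 8 h, 11 to 28 at 24 h, RA 7 to 12 at 8 h, auxin in RA 1 on day 1, 3 to 9 on day 2, 10 to 15 on day 4, 8 to 26 on day 6, difference in all reads in dKO 0 to 1 at 2 h and 0 to 1 at 8 h, difference in T>C reads in dKO 0 to 6 at 8 h, difference in all reads in RBBP5 0 to 2 at 8 h. The lone DMSO sample of day 6, and groups left with 1 library, were assumed to vary like the other groups.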
